A study of Mus musculus with 2 samples.

Results

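The genes described here are the SRSF, HNRNP and RBM genes of mouse gastrocnemius, a calf muscle. They were chosen by name: every gene called Srsf followed by a number, Hnrnp followed by letters or digits, or Rbm followed by a number with an optional suffix. This took 72 of the 34745 genes in the table, namely 11 Srsf, 20 Hnrnp and 41 Rbm genes. The rule uses gene names alone, but the families were chosen with earlier results of these data known. Total RNA was sequenced from 2 groups with 1 library each. TECRLflox/flox mice, whose Tecrl gene is floxed and for which no Cre driver is named, gave the control library. TECRLscko mice gave the second library: a Pax7-Cre allele crossed onto the floxed gene removes Tecrl from muscle stem cells (satellite cells). The labels name no age, sex, injury or the number of mice per library. The comparison asks how expression in the whole muscle differs when the gene is deleted from its stem cells. Neither group had a replicate, so no p-value is given, and every interval covers counting error only. Every difference is between these 2 libraries.

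These genes encode proteins that bind pre-mRNA and decide which of its parts are kept. SR proteins, the products of the Srsf genes, join RNA recognition motifs to a tail rich in arginine and serine and mostly promote the use of nearby exons. The hnRNP proteins coat nascent transcripts and often oppose SR proteins at exons. RBM is a naming convention for proteins with an RNA recognition motif, so its members range from parts of the spliceosome to factors of RNA decay and ribosome assembly. In striated muscle, alternative splicing sets which isoforms of titin, tropomyosin, troponin and many other sarcomere proteins a fiber makes. A gene-level count sums all transcripts of a gene and cannot show which isoforms were present.

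Depth was 19281017 counts in the control versus 16946124 in the TECRLscko library. Tecrl itself had 3 counts in the control versus 4 in the TECRLscko library, so the deletion could not be checked. Skeletal fiber markers were abundant in both libraries, at a summed 107778 CPM (counts normalized to library size with TMM factors) in the control versus 93627 in the TECRLscko library over 5 genes, and of 3 heart markers Nppa and Myl7 had 0 counts while Myh6 had 48 and 64. All 5 skeletal fiber markers were below the control. All 8 slow fiber markers were above the control, at a summed 1905 CPM in the control versus 3325 in the TECRLscko library. All 5 adipocyte markers were below it, at a summed 41.1 and 19.03 CPM. Of the macrophage markers 4 of 5 were below it, at 173 and 139.96 CPM, while all 5 tendon markers were above it, at 105 and 139 CPM, as were all 3 erythroid markers, at 148 and 174 CPM. Of the 5 satellite cell markers 3 were above it, at a summed 26.4 and 29.7 CPM. Only 1 of 5 endothelial, 1 of 5 Schwann cell and 2 of 5 fibro-adipogenic progenitor markers were above it. The part of fiber type and cell makeup in the differences given here was not tested. In whole muscle, fewer cells of a type and less RNA per cell cannot be told apart.

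Of the 72 genes, 64 reached a mean of 1 CPM over the libraries: 10 Srsf, all 20 Hnrnp and 34 Rbm genes. The other 8 were near or at 0. Srsf12, Rbm11, Rbm31y and the antisense transcript Rbm46os had 0 counts in both libraries, which allows up to 0.152 CPM in the control versus 0.181 CPM in the TECRLscko library. Rbm44 had 0 counts in the control versus 1 in the TECRLscko library, Rbm46 had 0 and 4, Rbm47 had 6 in each, and Rbm3os, antisense to Rbm3, had 3 and 1. Rbm46 is known for its role in germ cells.

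The level of these genes was compared by the deposited FPKM, the count divided by gene length and library size. Rbm24 stood far above all others, at 89.8 FPKM in the control versus 70.7 in the TECRLscko library. Hnrnpab followed at 42.03 and 34.7 FPKM, Hnrnpa2b1 at 23.4 and 26.4, Hnrnpc at 16.3 and 22.6, Hnrnpa0 at 20.1 and 17.3, and Srsf2 at 20.2 and 16.9, in the order of the mean of both libraries. The gene length behind the deposited FPKM is longer than a single transcript for most of these genes, with a median of 2.10 times the longest annotated transcript over the 64 genes against 1.64 times over all protein-coding genes that passed. Per kilobase of the longest protein-coding transcript, Hnrnpa2b1 came first, at 142 CPM per kilobase in the control versus 168 in the TECRLscko library. Rbm24 came next at 91.4 and 75.4, and Hnrnpab stood at 66.5 and 57.5. The order of the leading genes thus depends on the length used.

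**Figure D1:**
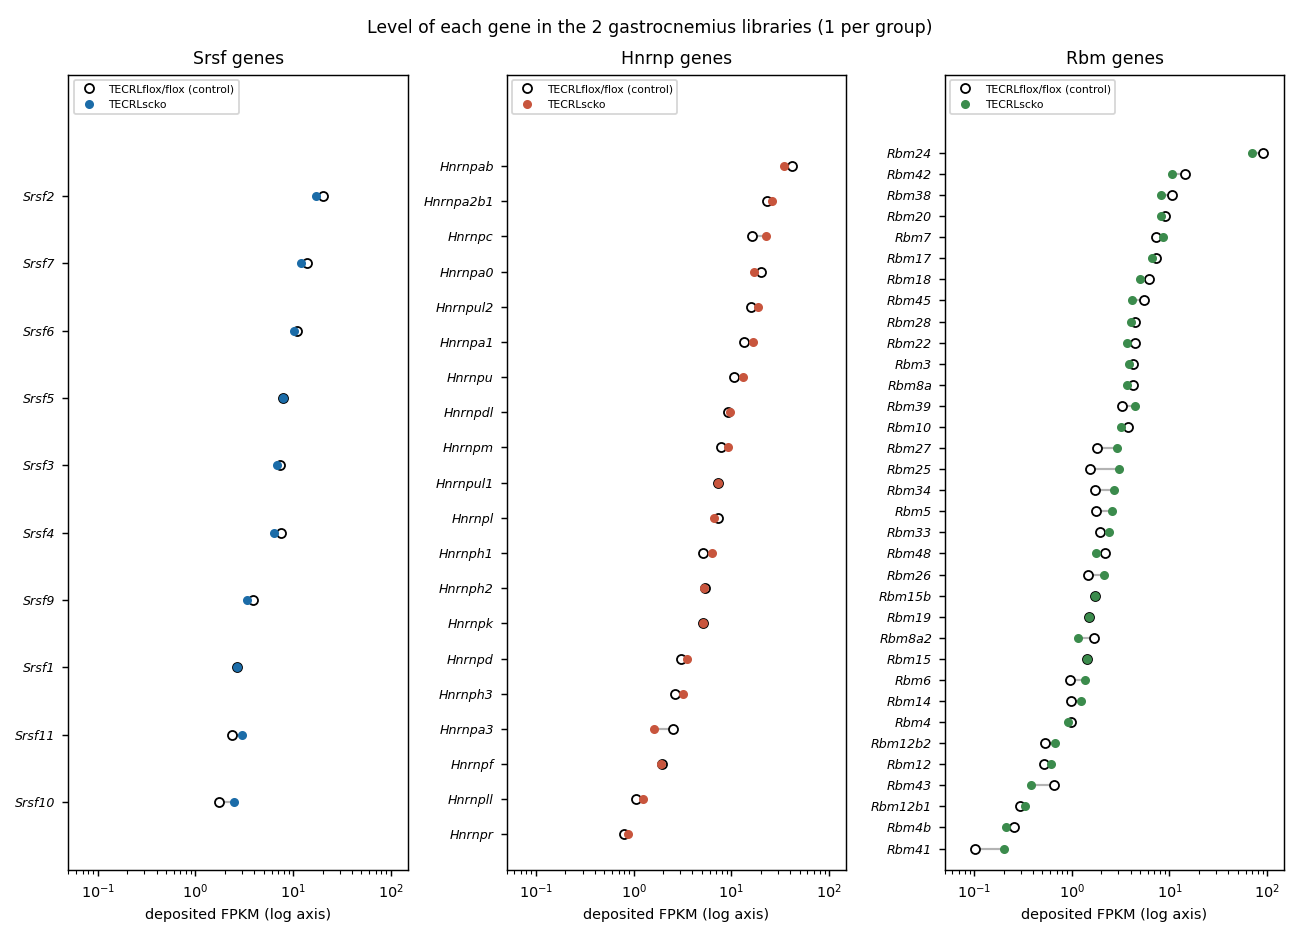
Level of each SRSF, HNRNP and RBM gene above a mean of 0.1 FPKM, in deposited FPKM on a log axis; open circles are the control library, filled circles the TECRLscko library, 1 library each. Rbm24 stands alone at 89.8 and 70.7 FPKM, and for most genes the circles lie close together.

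Taken over the 3 families, the libraries were close. Calls were made from 1.5-fold and from 2-fold, on the log2 ratio of TECRLscko to control after 0.5 was added to each CPM. Of the 64 genes 6 were at least 1.5-fold higher in the TECRLscko library, all of them Rbm genes, or 9.38% against a background of 9.24% of all 12559 genes. At least 1.5-fold lower was 1 gene, also an Rbm gene, against a background of 3.88%. From 2-fold, 1 was higher and 0 were lower, against backgrounds of 2.28% and 0.796%. The counts of called genes were therefore near the background. After the trends of the ratio on transcript length and GC content over all genes were removed, an alternative added once those trends had been seen, none of the 64 was 1.5-fold higher and 2, Hnrnpa3 and Hnrnpr, were 1.5-fold lower. Under that setting 4.5% of all genes were 1.5-fold higher and 3.68% lower.

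The median log2 ratio was 0.22 for Hnrnp genes, -0.03 for Srsf genes and 0.0084 for Rbm genes, against -0.02 for all genes. The Hnrnp median was above 0 under all 12 other settings, at 0.05 to 0.29, and the Srsf median below 0 under all of them, at -0.12 to -0.03. The Rbm median took either sign, from -0.12 with FPKM to 0.12 without overlapping gene models. The median of all genes was also below 0 under all 12 other settings, at -0.099 to -0.0012. With FPKM it was -0.099, against -0.097 for Srsf genes. Of the 20 Hnrnp genes 16 were above the control, of the 10 Srsf genes 4, and of the 34 Rbm genes 17, against 48.2% of all genes. The counting interval lay wholly above a ratio of 1 for 12 Hnrnp, 11 Rbm and 2 Srsf genes. It lay wholly below 1 for 3 Hnrnp, 7 Rbm and 1 Srsf genes. The share over all genes was not computed, so these counts cannot be set against a background. Summed over the family, Hnrnp genes took 1324 CPM in the control versus 1483 in the TECRLscko library, a ratio of 1.12 with a 95% counting interval of 1.10 to 1.14. Srsf genes took 502 and 505 CPM.

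**Figure D2:**
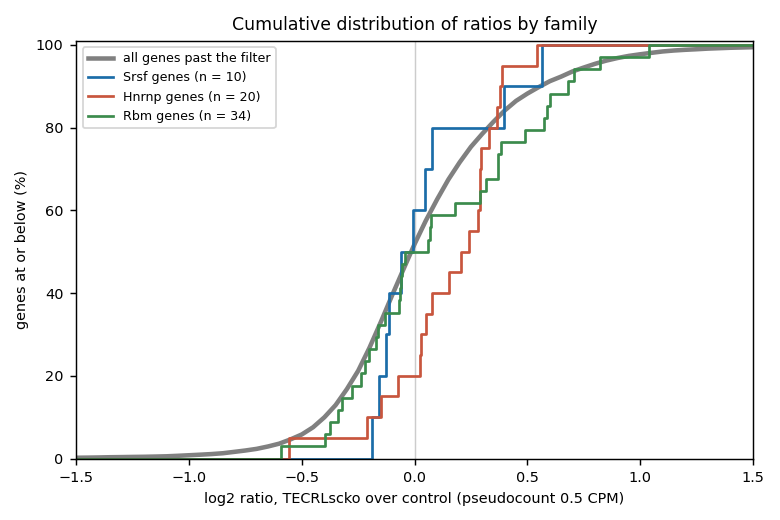
Percentage of genes at or below each log2 ratio (TECRLscko over control, pseudocount 0.5 CPM) for the 10 Srsf, 20 Hnrnp and 34 Rbm genes past the filter and for all 12559 genes. The Hnrnp line runs to the right of all genes around 0, with a median of 0.22 against -0.02.

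Transcript GC content and length moved with the ratio, over all genes and across the 64 genes, though length did so more weakly among Hnrnp genes. The gray line of all genes in the plot of ratio against GC content falls from a median log2 ratio of 0.36 in the tenth of genes with the lowest GC content to -0.17 in the tenth with the highest. Across the 64 genes the Pearson correlation of log2 ratio with GC content was -0.40 and that with log2 length 0.41, against -0.39 and 0.37 over the 11952 protein-coding genes that passed. By family, the correlation with log2 length was 0.16 for Hnrnp, 0.41 for Srsf and 0.52 for Rbm genes. That with GC content was -0.32, -0.42 and -0.44. By rank (Spearman), the correlation with length was 0.28 for Hnrnp, 0.64 for Srsf and 0.56 for Rbm genes. The values of these genes come from the same 2 libraries and are not replicates. The 10 genes of lowest GC content, 37.1 to 40.9%, had a median log2 ratio of 0.33, and 8 of them were above the control. The 10 of highest GC content, 54.0 to 61.5%, had a median of -0.06, with 4 above. After the trends were removed the medians were -0.11 and 0.0061, and the Hnrnp median went from 0.22 to 0.05.

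**Figure D3:**
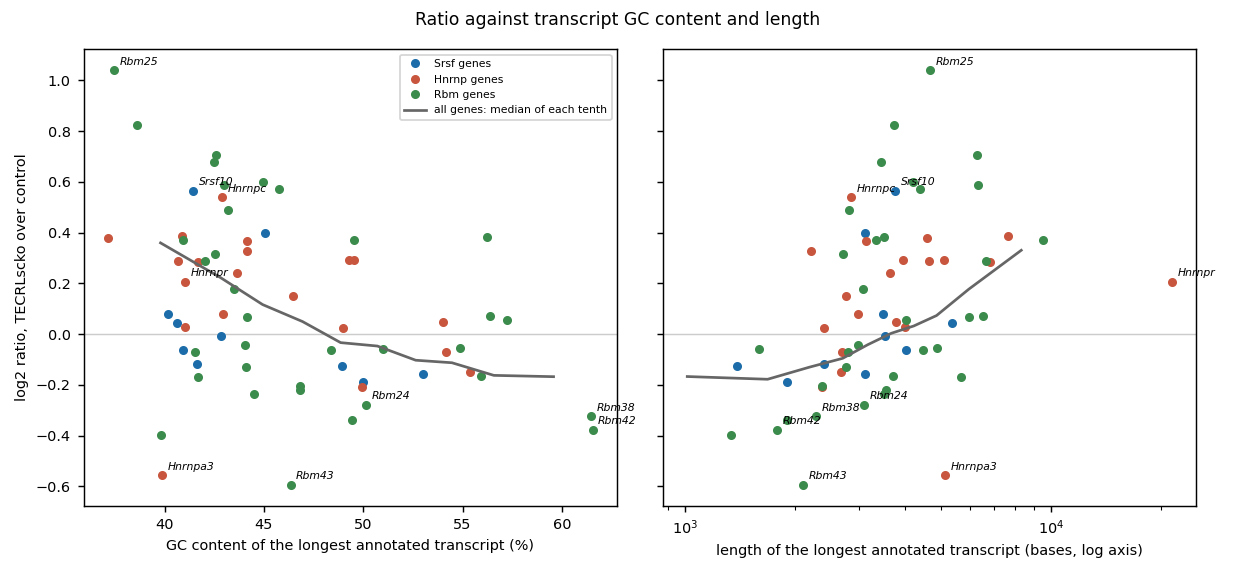
Log2 ratio (TECRLscko over control) of each gene against the GC content in percent and the length in bases, on a log axis, of its longest annotated transcript; points are Srsf, Hnrnp and Rbm genes, and the gray line joins the medians of all genes in bins of equal size. Rbm25, with the highest ratio, has low GC content, and Rbm38 and Rbm42, with ratios below 0, have the highest.

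Among the Srsf genes, the classical SR proteins stood close to the control and 2 further members were higher. Srsf2, also known as SC35 and the most expressed of them by FPKM, had 2294 counts in the control versus 1687 in the TECRLscko library. Its TECRLscko level was lower by a factor of 1.14 (95% interval 1.07 to 1.22), the only Srsf gene whose interval lay wholly below the control. Srsf6, an activator of weak exons, had 77.9 and 77.5 CPM, a ratio of 0.995 (0.923 to 1.07). The levels of Srsf1, the founding member once called SF2/ASF, were 29.9 CPM in the control versus 30.9 in the TECRLscko library. Srsf3 had 66.2 and 63.4 CPM and its paralogue Srsf7 30.6 and 28.2. The remaining classical members Srsf4, Srsf5 and Srsf9 had log2 ratios of -0.16, 0.08 and -0.12. Over the 8 classical genes the median was -0.09, with 2 above the control (against 48.2% of all genes).

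Srsf10 and Srsf11 stood apart from those 8. Srsf10, which acts as a splicing repressor when dephosphorylated, had 349 counts in the control versus 437 in the TECRLscko library. It was 1.49-fold higher (1.29 to 1.72), just under the 1.5-fold rule on the pseudocount scale at a log2 ratio of 0.56. Srsf11, a nuclear SR protein known as p54, had 795 and 881 counts and was 1.32-fold higher (1.2 to 1.46). The log2 ratio of Srsf10 was 0.31 after the length and GC trends were removed, and that of Srsf11 went from 0.40 to 0.33. With the trend on the length implied by FPKM removed instead, Srsf11 stood at 0.12 and Srsf10 at 0.45. The counting intervals of both lie above those of all 8 classical genes.

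Among the Hnrnp genes no member reached 1.5-fold in either direction. Hnrnpc, whose product packages nascent transcripts in tetramers, came closest from above. It had 986 counts in the control versus 1207 in the TECRLscko library and was 1.46-fold higher (1.34 to 1.59). Its log2 ratio of 0.54 stood at 0.41 after the length and GC trends were removed. Hnrnpu, a nuclear scaffold protein that binds both RNA and chromatin, had 2133 and 2341 counts and was 1.31-fold higher (1.23 to 1.39), but its log2 ratio of 0.39 became -0.12 after that correction. Its relative Hnrnpul2 was 1.23-fold higher (1.15 to 1.31), while Hnrnpul1 stood at 74.8 CPM in the control versus 77.4 in the TECRLscko library. Hnrnpr, whose longest annotated transcript has 21452 bases, went from a log2 ratio of 0.21 to -0.66 with the correction.

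Close relatives within the Hnrnp family did not always share a direction. Hnrnpa1 and Hnrnpa3 are paralogues that bind similar sequences. Hnrnpa1 had 498 counts in the control versus 541 in the TECRLscko library and was 1.3-fold higher (1.14 to 1.47). Hnrnpa3 had 357 and 201 counts and was 1.49-fold lower (1.25 to 1.78). The log2 ratio of Hnrnpa3 was -0.56 and lay between -0.97 and -0.51 under the 12 other settings. Hnrnpa2b1, the most abundant of the group by counts, had 4845 and 4799 counts and was 1.18-fold higher (1.13 to 1.23). Both Hnrnpa1 and Hnrnpa3 have processed copies in the mouse genome, and reads shared with such copies could be assigned differently.

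The promoters of this pair are shown because the paralogues stood on opposite sides of the control, as RefSeq windows on GRCm38.p6, plus strand, 250 bases before to 50 after the annotated start, chr15:103240147-103240446 for Hnrnpa1 and chr2:75659009-75659308 for Hnrnpa3. Capitals mark matches, on either strand, to the CCAAT box (the letters CCAAT), the GC box (the letters GGGCGG) and the E-box (the letters CANNTG).
Hnrnpa1: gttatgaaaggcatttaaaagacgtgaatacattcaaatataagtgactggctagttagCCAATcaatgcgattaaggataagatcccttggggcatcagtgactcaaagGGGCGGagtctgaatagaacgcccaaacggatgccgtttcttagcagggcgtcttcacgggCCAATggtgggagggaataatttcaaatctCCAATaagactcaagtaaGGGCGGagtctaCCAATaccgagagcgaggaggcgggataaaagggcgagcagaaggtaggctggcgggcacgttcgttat
Hnrnpa3: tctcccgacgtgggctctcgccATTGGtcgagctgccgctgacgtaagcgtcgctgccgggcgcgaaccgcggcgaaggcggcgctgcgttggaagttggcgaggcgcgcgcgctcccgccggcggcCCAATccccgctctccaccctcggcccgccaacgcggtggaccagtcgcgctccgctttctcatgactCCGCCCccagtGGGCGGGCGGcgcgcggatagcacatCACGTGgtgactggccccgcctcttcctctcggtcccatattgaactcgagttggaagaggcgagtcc
The Hnrnpa1 window holds 4 CCAAT boxes, 2 GC boxes and 16 CpG dinucleotides. The Hnrnpa3 window holds 2 CCAAT boxes, 3 GC boxes of which 2 overlap, 1 E-box and 44 CpG dinucleotides. Over all 32851 windows of this length 37.4% hold a CCAAT box, 35.7% a GC box and 72.3% an E-box, and the median is 7 CpG dinucleotides. Of 61 genes of the 3 families with a window, 29 (47.5%) hold a CCAAT box, 38 (62.3%) a GC box and 43 (70.5%) an E-box. Their median is 25 CpG dinucleotides. The 61 are 1 window per gene, the nearest to the gene model, whereas the 32851 include several windows of some genes. The 2 sets are therefore not alike. A match is a string of letters and not a bound site.

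The D-like proteins, which bind AU-rich RNA, also differed among themselves. Hnrnpab, the gene with the highest FPKM of the Hnrnp family, had 3110 counts in the control versus 2255 in the TECRLscko library and was 1.16-fold lower (1.10 to 1.22). Hnrnpd, also called AUF1, had 742 and 759 counts and was 1.22-fold higher (1.10 to 1.35). Hnrnpdl stood at 74.02 and 82.3 CPM. In the F/H group, whose proteins bind runs of G, Hnrnph1 had 62.7 and 81.6 CPM and was 1.3-fold higher (1.2 to 1.41), whereas Hnrnph2 had 54.6 and 55.6 CPM and Hnrnpf 18.04 and 18.4. Hnrnph3 had 259 and 275 counts and was 1.27-fold higher (1.06 to 1.51). It overlaps Rufy2 on the other strand, which had 126 and 102 counts. Hnrnph1 and Hnrnpd turned below 0 after the length and GC trends were removed, at -0.09 and -0.15, while Hnrnph3 went from 0.33 to 0.28. Hnrnpl, a reader of CA repeats, stood at 79.4 and 75.6 CPM, and its paralogue Hnrnpll at 16.1 and 19.8. Hnrnpm had 55.1 and 67.5 CPM and was 1.23-fold higher (1.13 to 1.33). Hnrnpk, which binds C-rich sequence, had 67.8 and 71.6 CPM.

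**Figure D4:**
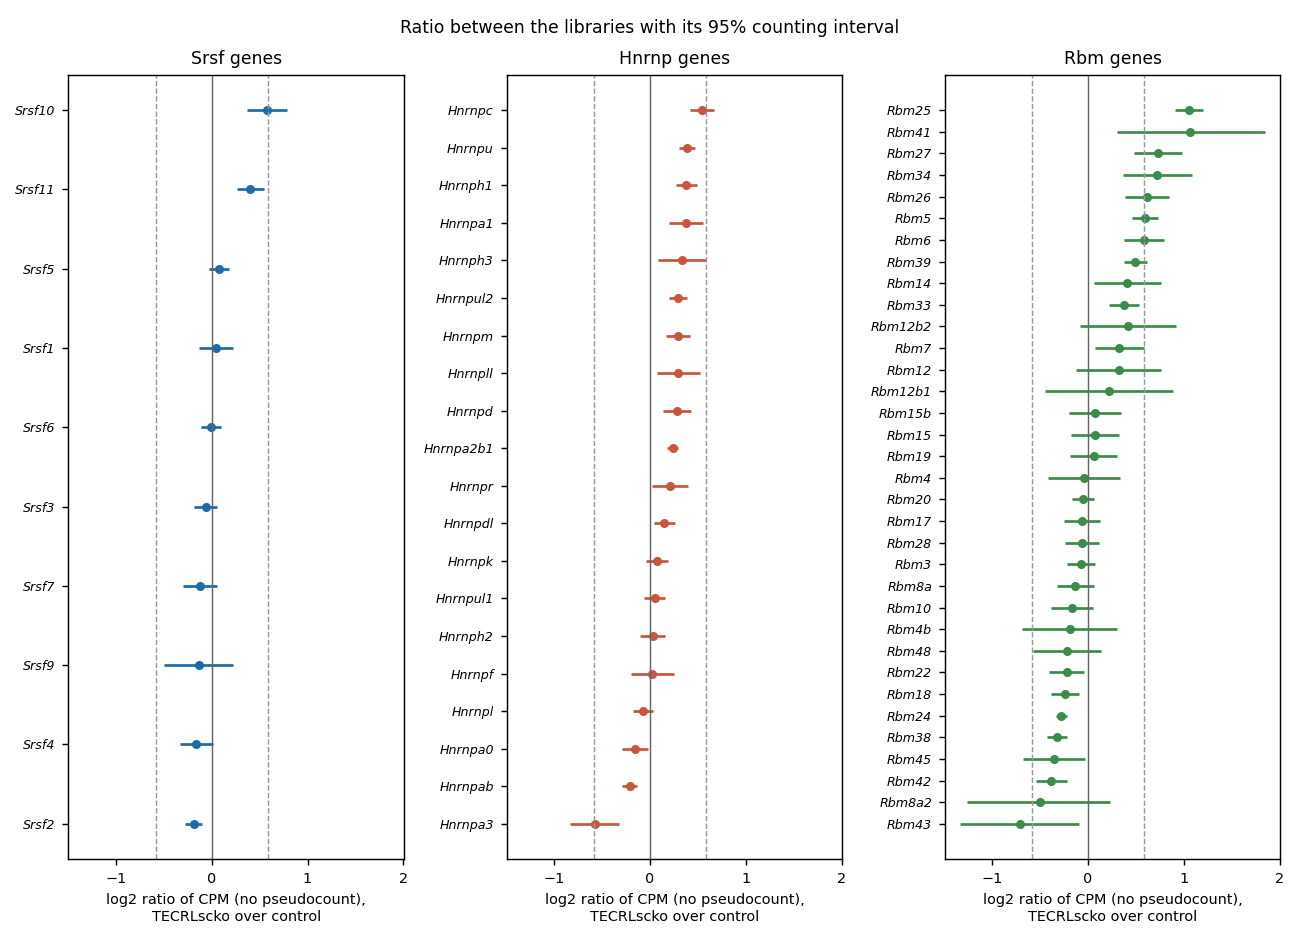
Log2 ratio of CPM (TECRLscko over control, no pseudocount) for each gene past the filter, with its exact 95% interval for counting error; dashed lines mark 1.5-fold. Rbm25 lies beyond 1.5-fold with its whole interval, and the classical Srsf genes lie close to 0.

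The muscle-rich genes Rbm24, Rbm38 and Rbm20 were all below the control, none by 1.5-fold. So were the 5 skeletal fiber markers, at a median log2 ratio of -0.33, while all 8 slow fiber markers were above it, at a median of 0.92. These libraries hold muscle only, so the enrichment of these Rbm genes over other tissues was not measured. Rbm24 (ENSMUSG00000038132, chromosome 13, 46418300 to 46431090, GRCm38, protein-coding) promotes inclusion of muscle exons and is needed for sarcomere assembly. It had 5569 counts in the control versus 3853 in the TECRLscko library, or 282 and 233 CPM, and was 1.21-fold lower (1.16 to 1.26). Rbm38 (ENSMUSG00000027510, chromosome 2, 173020498 to 173034734), its paralogue and a regulator of mRNA stability, had 1992 and 1334 counts and was 1.25-fold lower (1.17 to 1.34). Their counting intervals overlap. Rbm20 (ENSMUSG00000043639, chromosome 19, 53677306 to 53867080), which represses exons of titin and is mutated in human dilated cardiomyopathy, had 1434 and 1158 counts. Its ratio of 0.963 (0.890 to 1.04) has an interval that holds 1, unlike the other two.

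After the length and GC trends were removed, the log2 ratio of Rbm24 went from -0.28 to -0.21, that of Rbm38 from -0.32 to -0.11 and that of Rbm20 from -0.05 to -0.05. Rbm38 has 1 of the highest transcript GC contents of the 3 families, 61.5%. All 12 other settings, or 10 for Rbm38, left the 3 genes below the control.

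The promoters of the paralogues Rbm24 and Rbm38 are shown because the pair stood on the same side, with the same windows, strand and capitals, chr13:46418050-46418349 for Rbm24 and chr2:173021652-173021951 for Rbm38, whose RefSeq start lies 1404 bases inside the deposited gene model. Myogenic factors of the MyoD family bind E-boxes.
Rbm24: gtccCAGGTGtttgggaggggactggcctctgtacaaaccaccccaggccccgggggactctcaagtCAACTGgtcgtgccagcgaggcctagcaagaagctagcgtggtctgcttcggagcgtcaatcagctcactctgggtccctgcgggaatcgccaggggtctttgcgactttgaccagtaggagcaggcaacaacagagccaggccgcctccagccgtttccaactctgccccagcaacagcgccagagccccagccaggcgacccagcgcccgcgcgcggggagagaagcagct
Rbm38: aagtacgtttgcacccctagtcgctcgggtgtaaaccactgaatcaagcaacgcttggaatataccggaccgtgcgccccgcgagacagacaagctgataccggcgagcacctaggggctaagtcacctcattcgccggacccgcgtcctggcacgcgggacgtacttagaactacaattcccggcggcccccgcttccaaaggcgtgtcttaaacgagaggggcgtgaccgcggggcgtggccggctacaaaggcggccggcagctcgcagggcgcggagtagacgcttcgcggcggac
The Rbm24 window holds 2 E-box matches and 18 CpG dinucleotides, and the Rbm38 window holds 37 CpG dinucleotides and no match to the motifs searched, which says only that these letters are not in this window. The MEF2 motif was found in neither, and in 3.19% of all windows. The E-box core CAGCTG was in neither and in 16.3% of all windows.

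Genes whose splicing RBM20 is known to regulate in heart were read at the gene level only. Of 15 such genes 14 passed the filter, 9 of them above the control (against 48.2% of all genes). Their median log2 ratio was 0.18, or -0.11 after the length and GC trends were removed. Of these 14, 3 were at least 1.5-fold higher (against 9.24% of all genes), among them Ttn, titin (31574 counts in the control, 46519 in the TECRLscko library, log2 ratio 0.81), and Nexn, the actin-binding nexilin (0.67). After the trends were removed none was (against 4.5% of all genes), and Ttn stood at -0.25. The most expressed of the list by FPKM were Tpm1, a tropomyosin, at a log2 ratio of -0.28, and Ldb3, a Z-disc protein, at -0.32.

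The highest log2 ratio of the 3 families on the pseudocount scale was that of Rbm25 (ENSMUSG00000010608, chromosome 12, 83631236 to 83683123, protein-coding), whose human product works with the U1 snRNP to choose 5′ splice sites. It had 633 counts in the control versus 1101 in the TECRLscko library, or 32.1 and 66.5 CPM, and was 2.07-fold higher (1.88 to 2.29). Its log2 ratio of 1.04 was 0.80 with FPKM, from 1.53 and 3.02 FPKM before 0.5 was added to each. It was 0.58 after the length and GC trends were removed, its lowest value under 10 alternatives. By the plain CPM ratio Rbm41, with few counts, stood as high, and with the length and GC trends removed Hnrnpa3 was farther from the control, at -0.97. Its longest transcript has a GC content of 37.5%.

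Other RBM factors of splice site choice lay on either side of the control. Rbm5 and Rbm6 are related genes next to each other on chromosome 9, and the product of human RBM5 regulates exons of apoptosis genes. Rbm5 had 820 and 1038 counts and was 1.51-fold higher (1.38 to 1.66), and Rbm6 had 344 and 433 counts and a plain ratio of 1.5 (1.3 to 1.73), just under the threshold at a log2 ratio of 0.57. Rbm10, the third relative, had 391 and 292 counts with a ratio of 0.890 (0.763 to 1.04), and its interval does not overlap that of Rbm5. Rbm39, a relative of the U2AF large subunit, had 1008 and 1191 counts and was 1.41-fold higher (1.29 to 1.53). Rbm17, which acts at 3′ splice sites, stood at 26.4 and 25.4 CPM. Rbm14, a paraspeckle protein, had 132 and 147 counts and was 1.33-fold higher (1.04 to 1.69), and Rbm4 and Rbm4b had 134 and 109 and 83 and 61 counts. These 3 genes overlap a further counted model, Gm21992, which had 40 and 48 counts.

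Factors of m6A methylation, nuclear RNA decay and export were all above the control, 2 of 6 by at least 1.5-fold (against 48.2% and 9.24% of all genes), but Rbm15 and Rbm15b went to -0.23 and -0.0070 on the log2 scale after the length and GC trends were removed. These 2, Rbm26 and Rbm27, are paralogues linked to a nuclear exosome adaptor. Rbm26 had 273 counts in the control versus 351 in the TECRLscko library and was 1.53-fold higher (1.3 to 1.8). Rbm27 had 225 and 313 counts and was 1.66-fold higher (1.39 to 1.98). Rbm7, of the NEXT complex that feeds nuclear RNA to the exosome, had 250 and 263 counts and was 1.25-fold higher (1.05 to 1.5). Rbm33 had 641 and 698 counts and was 1.3-fold higher (1.16 to 1.45). Rbm15 and Rbm15b, which guide the m6A methyltransferase, were close to the control, at ratios of 1.05 (0.881 to 1.25) and 1.05 (0.871 to 1.27). All 6511 bases of Rbm15b lie within Manf on the same strand, and the log2 ratio of both summed is -0.015. Summed with Vprbp, which shares 75 bases on the other strand, it is 0.28. The direction of Rbm15b is therefore uncertain. The median log2 ratio of the 6 was 0.34, and 0.13 after the length and GC trends were removed.

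Of 6 genes for parts of the spliceosome and of the exon junction complex, 5 were below the control (against 51.8% of all genes). Rbm42, whose product binds hnRNP K, had 819 counts in the control versus 527 in the TECRLscko library and was 1.3-fold lower (1.17 to 1.46). Its transcript has a GC content of 61.5%, and its log2 ratio of -0.38 stood at -0.14 after the length and GC trends were removed. Rbm22, a protein of the catalytic core of the spliceosome, had 575 and 413 counts and was 1.17-fold lower (1.03 to 1.33). Rbm8a, the Y14 subunit of the exon junction complex, stood at 26.3 and 24.04 CPM. Its single-exon relative Rbm8a2 had 44 and 26 counts, with an interval that holds 1, and reads of this pair may be shared. All 1338 bases of Rbm8a2 also lie within Pld5 on the same strand, which had 42 and 56 counts, and the log2 ratio of -0.40 becomes 0.17 for both summed, so the direction of Rbm8a2 is uncertain. Rbm48, a factor of the minor spliceosome, had 162 and 117 counts. The exception was Rbm41, also a protein of the minor spliceosome, which had 24 and 42 counts and a log2 ratio of 0.82; its plain CPM ratio was 2.09 (1.23 to 3.60). Its paralogue Rnpc3, of the same machinery, had 103 and 109 counts.

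Nucleolar members were mixed. Rbm34 had 114 and 158 counts and was 1.65-fold higher (1.29 to 2.12), the last of the 6 genes past 1.5-fold. Rbm19 and Rbm28, both needed for ribosome assembly, stood at 14.9 and 15.5 CPM and at 30.2 and 28.9 CPM. Rbm3, induced by mild cold, had 881 counts in the control versus 704 in the TECRLscko library, a ratio of 0.953 (0.862 to 1.05). Cirbp, the other well known cold-inducible RNA-binding gene, had 487 and 431 counts, a ratio of 1.06 (0.925 to 1.2).

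Rbm43 was the only gene of the 3 families at least 1.5-fold lower. It had 68 counts in the control versus 35 in the TECRLscko library and was 1.63-fold lower, with a wide interval of 1.07 to 2.52. It lay past 1.5-fold by little, at a log2 ratio of -0.59, and at -0.51 with a pseudocount of 1 CPM. Rbm45, linked to neurodegeneration in human, had 203 and 133 counts and was 1.28-fold lower (1.02 to 1.61). Rbm18 had 910 and 647 counts and was 1.18-fold lower (1.07 to 1.31). Rbm12, Rbm12b1 and Rbm12b2 had 87 and 91, 41 and 40, and 66 and 74 counts, each with an interval that holds 1. Rbm12 lies within the models of Cpne1 and Gm28036, which had 181 and 183 and 308 and 214 counts, so its reads are uncertain. In all, 27 of the 64 genes overlap another counted model and 37 do not. Srsf2 overlaps Mettl23 (470 and 338 counts) and Mfsd11 (445 and 448), Hnrnpab overlaps Phykpl (298 and 302), and Rbm15b overlaps Manf (307 and 242). The antisense model within Rbm25, Gm29361, had 3 and 1 counts, too few to move its ratio.

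Of 22 pairs of related genes, which include the relatives Rnpc3 and Syncrip outside the families, 15 had overlapping counting intervals and 7 did not. The 7 were Rbm5 with Rbm10, Hnrnpa1 with Hnrnpa3, Hnrnpd with Hnrnpab, Hnrnph1 with Hnrnph2 and with Hnrnpf, Hnrnpl with Hnrnpll, and Hnrnpul1 with Hnrnpul2. Of the 22 pairs, all 4 within the Srsf family overlapped. The pairs share genes and were chosen with the values known. Intervals are wide where counts are few, and no other gene pairs were compared. Whether related genes overlap more or less than other genes was therefore not tested.

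A feature not used in choosing the genes was how many carry annotated transcripts that are not expected to make protein. SR proteins and many hnRNPs are known to limit their own level by splicing in poison exons, which send the transcript to nonsense-mediated decay. GENCODE annotates at least 1 decay transcript for 9 of 10 Srsf, 10 of 20 Hnrnp and 12 of 34 Rbm genes, and for 28.7% of the 11952 protein-coding genes. A transcript with a retained intron is annotated for 8, 14 and 22 of them, or 68.8% of the 64 genes, and for 59.4% of the protein-coding genes. The median number of annotated transcripts was 7.5 for Srsf, 8 for Hnrnp and 5 for Rbm genes, against 5 for the protein-coding genes. The shares were not adjusted for this number. The productive and the unproductive transcripts of a gene cannot be told apart in these counts.

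Among other splicing genes, regulators stood mostly above the control and core snRNP proteins mostly below it. Of 32 other splicing regulators 29 passed the filter and 24 stood higher than in the control, 7 by at least 1.5-fold and none lower by as much (against 48.2%, 9.24% and 3.88% of all genes), with a median log2 ratio of 0.25. Tia1, which binds U-rich sequence after 5′ splice sites, had 160 counts in the control versus 409 in the TECRLscko library and was 3.05-fold higher (2.53 to 3.68). Ptbp3, a polypyrimidine tract binder, had 243 and 433 counts and was 2.12-fold higher (1.81 to 2.5). Mbnl1, the muscleblind protein sequestered in human myotonic dystrophy, had 2171 and 3795 counts and was 2.08-fold higher (1.98 to 2.20). Mbnl2 (0.66 on the log2 scale), Qk (0.72), Fubp1 (0.72) and Matr3 (0.91) were the other 4, and the most expressed by FPKM, Rbfox1 and Fxr1, stood at 0.54 and 0.56. After the length and GC trends were removed the median was 0.08. Then 2 were at least 1.5-fold higher (against 4.5% of all genes), at log2 ratios of 1.25 for Tia1 and 0.61 for Mbnl1.

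Of 31 core snRNP proteins 27 were below the control, none by 1.5-fold (against 51.8% and 3.88% of all genes). Their median log2 ratio was -0.17, and -0.15 after the trends were removed. With the trends removed 1 was at least 1.5-fold lower, against 3.68% of all genes. The most expressed by FPKM, Sf3b2 and the Sm protein Snrpb, stood at -0.23 and -0.39. Their transcripts are shorter, with a median of 2933 bases against 4477 for the regulators, and richer in GC, at 50% against 44.1%.

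Of 9 kinases that phosphorylate SR proteins none reached 1.5-fold on the pseudocount scale and 6 were above the control (against 48.2% of all genes). The median log2 ratio was 0.15, and -0.0045 after the trends were removed. Prpf4b, Srpk2 and Clk4, which the rule for named genes does not take, were the highest, at 0.58, 0.52 and 0.37. Srpk3, a muscle-specific SR protein kinase, was the lowest of them, at 1039 counts in the control versus 629 in the TECRLscko library and a log2 ratio of -0.47. Clk3, the most expressed by FPKM, stood at -0.13. Of 14 SR-related proteins past the filter 13 stood higher than in the control, 2 by 1.5-fold or more (against 48.2% and 9.24% of all genes): Luc7l2, a U1 snRNP partner (0.86), and Srek1 (0.61). The median of 0.28 became 0.095 after the trends were removed, and Luc7l2 alone stayed past 1.5-fold at 0.60 (against 4.5% of all genes). Rnps1 and Arglu1, the most expressed by FPKM, stood at 0.04 and 0.21. The 12 genes of the exon junction complex and nonsense-mediated decay had a median of -0.01, with 6 above the control (against 48.2% of all genes). Upf2 (0.81), the kinase Smg1 (0.75) and Upf3b (0.69) were at least 1.5-fold higher, or 3 of 12 against 9.24% of all genes. After the trends were removed none of them was, against 4.5% of all genes. The most expressed of that list, Magoh and Upf1, stood at -0.17 and 0.0010.

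**Figure D5:**
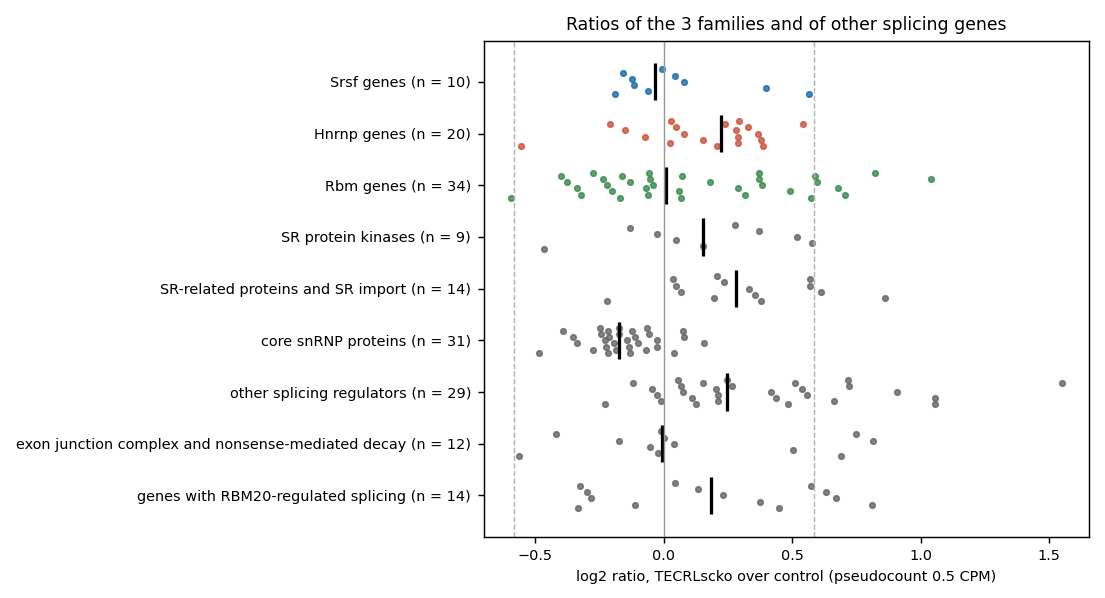
Log2 ratio (TECRLscko over control) of each gene past the filter in the 3 families and in 6 lists of other splicing genes; black bars are medians and dashed lines mark 1.5-fold. Core snRNP proteins have a median of -0.17 and other splicing regulators one of 0.25.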

How the data were processed

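Per the file headers, each gene of the deposited table has counts and FPKM in 2 libraries. The deposited counts are whole and were not normalized. The deposited FPKM values are those counts divided by a gene length and the library total, since both libraries imply the same length, to within 1%, for all 16041 genes counted in both. StringTie 1.3.0, HISAT2 2.0.4, CASAVA and the build GRCm38 are listed, with no role given, per the submitters' processing notes. The read counter, strand setting and annotation release remain not given in the sources used here, so reads of overlapping or antisense genes cannot be assigned with certainty.

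TMM factors from edgeR 4.0.16 (R 4.3.3) scaled the counts. The comparison took genes whose mean reached 1 CPM, with a pseudocount of 0.5 CPM, which understates the difference of low genes. Single folds are CPM ratios without it. Their 95% intervals are exact (Clopper-Pearson), given a gene's total over both libraries. PCR copies are not separate molecules, so these intervals, and the floor of 3 counts in a library, reflect counting error alone. Transcript lengths, GC content and transcript classes come from GENCODE M21 (GRCm38), which holds all 72 genes, 61 with identical coordinates. The longest transcript served for the trends, removed with lowess (span 0.3, statsmodels 0.14.6). Promoters come from RefSeq (GRCm38.p6), which matched 61 genes. The steps were tested on simulated data.

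There were 10 other settings besides the 2 for length and GC: DESeq2 1.42.0 size factors, total-count scaling, FPKM, pseudocounts of 0.1 and 1, no filter, a mean of 5 CPM, removal of the trend on the length implied by FPKM, no overlapping models, and totals without mitochondrial and hemoglobin genes. The families and lists were chosen with earlier results of these data known. Named genes were the muscle-rich genes, those past 1.5-fold, the 5 highest by FPKM and the 3 highest and lowest ratios per family, their paralogues, members that overlap another model and, of each list, those past 1.5-fold and the 2 highest by FPKM. The remaining members, and Cirbp, are named outside this rule, with their values known. The value of 1 further gene of these lists is not reported here.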

Additional observations from a re-analysis of the deposited data

How the results depend on the processing

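No paired analysis was possible because a group held 1 library, and for the same reason no replicate could be left out. The count of 1 gene at least 2-fold higher became 0 with total-count scaling, with FPKM, with the implied length trend removed, with the length and GC trends removed, without overlapping models and over genes whose implied and transcript lengths differ by less than 2 times, and 2 with a pseudocount of 0.1. Over all genes the count was 286 of 12559, and under these settings it ran from 68 of 9503 with FPKM to 371 of 12559 with a pseudocount of 0.1. Of genes 1.5-fold higher or more, the 6 became 1 under FPKM, 0 with the length and GC trends removed and 2 over genes of like lengths. The shares over all genes under these settings were 4.13%, 4.5% and 9.25%. The 1 gene at least 1.5-fold lower became 2 with total-count scaling and with either trend removed, and 0 with FPKM, with a pseudocount of 1, above a mean of 5 CPM and over genes of like lengths. Over all genes this share ran from 2.85% above a mean of 5 CPM to 5.24% with total-count scaling. The Hnrnp median of 0.22 became 0.048 with the length and GC trends removed. FPKM, the overlap and the like-length settings compared 56, 37 and 30 genes in place of 64. The FPKM setting took genes with a mean of at least 1 FPKM and added 0.5 to each FPKM. This addition understates the difference of genes of low FPKM. The cause was otherwise not tested. The length and GC setting and the like-length setting were chosen after seeing the data. Of 692 values of the 64 genes 53 left their counting interval and 35 took the opposite sign, in 19 genes, none of them past 1.5-fold. Depth limits Rbm41, Rbm43 and Rbm8a2, which rest on few counts.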
